A study of Mus musculus with 12 samples.

Results

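Myo18b and 6 genes beside it on mouse chromosome 5 (Tpst2, Tfip11, Srrd, Hps4, Asphd2 and Sez6l) were followed through RNA-seq of the full-thickness distal colon. In colons of mice lacking epithelial Sprouty2 the group means of Myo18b, Srrd, Hps4 and Tfip11 were 4.16, 1.68, 1.61 and 1.36 times those of littermates, and Myo18b, Srrd and Tfip11 did not overlap between genotypes. Hps4 overlapped through 1 mouse, and Tpst2, Asphd2 and Sez6l had ratios of 0.956 to 1.25 with overlapping groups. Over all genes, 30 of 15879 (0.189%) had all Spry2IEKO mice above all Spry2FF mice. In the limma fit 5 of 15879 genes (0.0315%) passed the genotype threshold, Myo18b among them. Srrd, Tfip11 and Hps4 did not pass (adjusted p = 0.129, 0.125 and 0.446 by limma). The 7 genes, of 35240 gene symbols in the table, were chosen by name as chromosomal neighbours, with the genotype values of some of them already known. Genotype values of these genes are therefore a description. Their genotype p-values and calls come from the fit over all genes and are no test of the 7. The tests below are on litter, sex, the difference between litters, and co-variation among mice. All 7 genes had a mean of at least 0.5 normalized TPM over the 12 mice and so entered every gene-level comparison. Sez6l reached it only through Spry2IEKO mice (mean 0.618, against 0.495 in Spry2FF mice). The 7 genes hold 41 of the 113193 transcripts listed.

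Spry2IEKO mice carry Vil1::Cre and homozygous floxed Spry2 (Spry2-f/f), so that Spry2 is deleted where the villin promoter is active, in the intestinal epithelium only. Spry2FF littermates carry the same floxed alleles without Cre, and the muscle, nerve, stroma and immune cells of the homogenate keep Spry2 in both genotypes. There were 6 mice of each genotype, 3 from litter A and 3 from litter B, and mice are named here by genotype and replicate number. Spry2FF mice were 3 males and 3 females, Spry2IEKO mice were 1 male (replicate 8) and 5 females, and the labels give the age as 6 weeks in one protocol and 8 weeks in another. Values are transcript abundances in TPM, scaled between mice by the authors (normalized TPM), summed over the transcripts of a gene, and they can be compared between genes because they are per length. The sums over all transcripts ran from 918816 to 1069158 in Spry2FF and from 972094 to 1065858 in Spry2IEKO mice, and the table gives no read count for a mouse. Spry2 itself was 22.8 to 32.3 in Spry2FF and 18.5 to 22.5 in Spry2IEKO colons, lower in all 6 of the latter (log2 difference -0.45, SE 0.0877, adjusted p = 0.16 by limma over all genes). Epithelial markers (Epcam, Cdh1, Vil1 and 5 others) summed to between 4784 and 7377 and smooth muscle markers (Acta2, Myh11, Tagln and 5 others) to between 3327 and 8164, so both layers were present in every mouse.

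Myo18b encodes an unconventional class XVIII myosin, best known from striated muscle, where it is required for building sarcomeres. Tfip11 encodes a G-patch protein that works with the helicase Dhx15 in taking spliceosomes apart after splicing. Hps4 encodes a subunit of BLOC-3, which with Hps1 activates the small GTPases Rab32 and Rab38 during the making of lysosome-related organelles. Tpst2 is a Golgi enzyme that adds sulfate to tyrosines of secreted and membrane proteins, Sez6l is a transmembrane protein of neurons, Asphd2 belongs to the aspartate beta-hydroxylase domain family, and Srrd is named for its SRR1 domain.

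The 7 genes occupy 619.7 kb of chromosome 5 (GRCm38, chr5:112276691-112896362; GENCODE M21 gene models). In order along the plus strand they are Tpst2, Tfip11, Srrd, Hps4, Asphd2, Sez6l and Myo18b. Tpst2, Tfip11 and Hps4 are on the plus strand and the other genes on the minus strand. Srrd and Hps4 start head to head with 42 bases between their starts. Tfip11 and Srrd run into each other tail to tail: their spans overlap by 682 bases, of which 515 are exonic in both, and without a statement that strand was used in counting, reads from this overlap cannot be assigned to one gene with certainty. Myo18b ends 310.5 kb beyond Hps4, with Asphd2 and Sez6l in between.

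**Figure D1:**
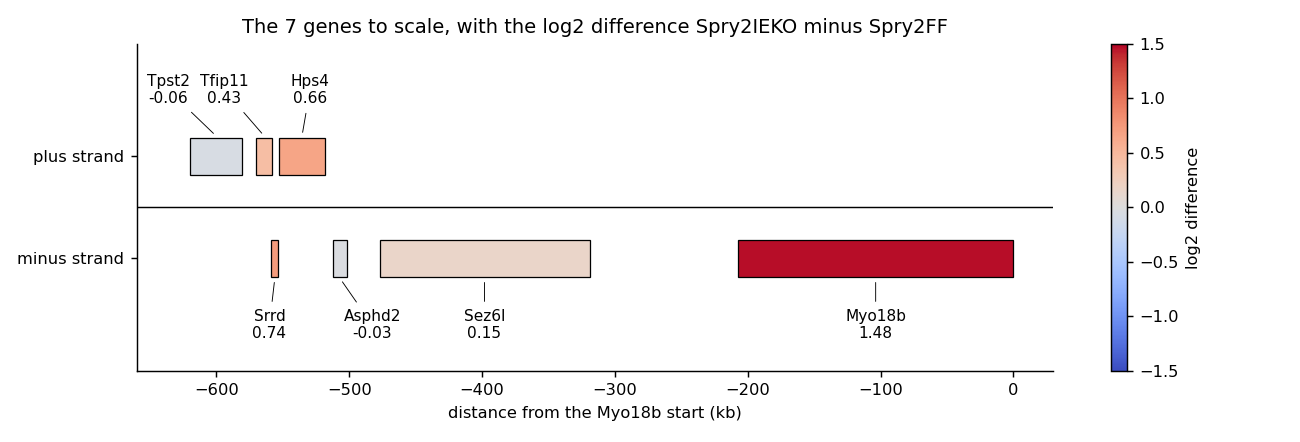
The 7 genes drawn to scale by distance from the Myo18b start (kb), plus strand above and minus strand below the line, coloured and labelled by the log2 difference Spry2IEKO minus Spry2FF on log2(normalized TPM + 0.5). The neighbouring Tfip11 (0.43), Srrd (0.74) and Hps4 (0.66) and the distant Myo18b (1.48) are positive, while Tpst2 (-0.06), Asphd2 (-0.03) and Sez6l (0.15) are near 0.

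Promoter windows of 300 bases (250 before the start and 50 after) were given by RefSeq on GRCm38.p6 for 5 of the 7 genes, all but Myo18b and Srrd. 3 windows are shown because they hold the starts of the genes with the largest ratios after Myo18b (Hps4 with Srrd, and Tfip11) and of the 2 Tpst2 transcripts compared below. The Hps4 window, chr5:112342845-112343144, also covers the annotated Srrd start. The Tfip11 window is chr5:112326119-112326418 and the first of the 3 Tpst2 windows is chr5:112276495-112276794, all read on the plus strand. Capitals mark TGACG or its reverse complement CGTCA, the core of the cAMP response element, a motif picked after the expression values were seen.
Hps4: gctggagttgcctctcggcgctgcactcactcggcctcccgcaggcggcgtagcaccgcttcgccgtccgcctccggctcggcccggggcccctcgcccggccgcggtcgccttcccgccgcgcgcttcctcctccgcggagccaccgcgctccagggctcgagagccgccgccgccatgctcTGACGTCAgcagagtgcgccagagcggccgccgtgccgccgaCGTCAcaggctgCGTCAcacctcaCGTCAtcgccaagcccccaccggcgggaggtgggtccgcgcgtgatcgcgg
Tfip11: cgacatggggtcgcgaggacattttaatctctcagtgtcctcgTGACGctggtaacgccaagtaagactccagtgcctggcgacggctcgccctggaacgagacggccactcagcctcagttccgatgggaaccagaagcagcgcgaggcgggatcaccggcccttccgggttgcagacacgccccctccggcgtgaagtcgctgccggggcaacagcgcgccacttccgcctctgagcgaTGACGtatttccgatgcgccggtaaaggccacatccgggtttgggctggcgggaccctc
Tpst2: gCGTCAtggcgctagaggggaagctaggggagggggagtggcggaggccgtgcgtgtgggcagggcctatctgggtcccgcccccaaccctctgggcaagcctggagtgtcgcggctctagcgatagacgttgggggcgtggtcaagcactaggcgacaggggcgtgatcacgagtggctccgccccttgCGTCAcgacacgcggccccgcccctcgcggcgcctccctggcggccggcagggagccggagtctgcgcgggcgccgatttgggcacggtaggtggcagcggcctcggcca
The Hps4 window held 5 matches, 2 of which lie on opposite strands within 1 palindrome TGACGTCA, and the Tfip11 and Tpst2 windows held 2 each. In all, 3 of the 8 windows of the 7 genes held TGACG on either strand, against 20.8% of the windows of all genes, and 1 of the 8 held TGACGTCA, against 1.79%. The windows of Asphd2 and Sez6l and the other 2 of Tpst2 had no match.

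Myo18b showed the largest ratio of the 7 genes. Its normalized TPM was 0.90, 0.38, 0.73, 0.81, 0.92 and 0.38 in Spry2FF replicates 2, 3, 7, 9, 10 and 13. In Spry2IEKO replicates 4, 5, 6, 8, 11 and 12 it was 2.34, 2.29, 2.18, 5.12, 2.51 and 2.69. The groups did not overlap, the 5 females with Spry2IEKO lay within a narrow band, and the single Spry2IEKO male stood at almost double that band. The means were 0.687 ± 0.247 and 2.86 ± 1.13 (SD, n = 6 each), a ratio of 4.16, and the log2 difference was 1.48 (SE 0.217). The pseudocount of 0.5 makes a log2 difference of so low a gene smaller than its ratio of means. Without the male of replicate 8 the difference was 1.32.

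Srrd was 12.4, 13.4, 12.1, 18.2, 17.95 and 13.6 normalized TPM in Spry2FF replicates 2, 3, 7, 9, 10 and 13. It was 24.1, 20.1, 24.5, 23.7, 22.9 and 32.2 in Spry2IEKO replicates 4, 5, 6, 8, 11 and 12, all above every Spry2FF mouse, with replicate 12 the highest. The means were 14.6 ± 2.75 and 24.6 ± 4.06 (SD, n = 6 each), a ratio of 1.68 and a log2 difference of 0.74 (SE 0.130).

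Tfip11 was 19.2, 15.6, 16.0, 15.1, 14.8 and 16.8 normalized TPM in Spry2FF and 21.4, 21.5, 23.9, 21.8, 23.0 and 20.9 in Spry2IEKO mice, in the same order of replicates. The groups did not overlap, although the highest Spry2FF mouse (replicate 2) came close to the lowest Spry2IEKO mouse (replicate 12). The means were 16.2 ± 1.63 and 22.1 ± 1.14 (SD, n = 6 each), a ratio of 1.36 and a log2 difference of 0.43 (SE 0.0753). With every mouse scaled to the same total, these 2 mice changed places (20.9 in Spry2FF replicate 2, 19.6 in Spry2IEKO replicate 12) and the groups overlapped.

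Hps4 was 10.6, 9.88, 15.5, 11.1, 9.67 and 8.63 normalized TPM in Spry2FF mice. In Spry2IEKO mice it was 19.5, 19.3, 18.3, 16.3, 10.8 and 21.03. Replicate 11 of Spry2IEKO fell within the Spry2FF range, and the other 5 lay above all Spry2FF mice. The means were 10.9 ± 2.41 and 17.5 ± 3.65 (SD, n = 6 each), with a ratio of 1.61 and a log2 difference of 0.66 (SE 0.166).

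Tpst2, at the end of the stretch beside Tfip11, was as abundant as Hps4 but did not separate by genotype. It ran from 10.7 to 15.9 normalized TPM in Spry2FF (mean 12.6 ± 1.94, SD, n = 6) and from 10.2 to 15.7 in Spry2IEKO mice (mean 12.03 ± 1.98, SD, n = 6), and its log2 difference was -0.06, with a 95% interval of -0.33 to 0.20.

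The 2 genes between Hps4 and Myo18b were low in these colons. Asphd2 ran from 0.356 to 1.32 normalized TPM in Spry2FF and from 0 to 1.64 in Spry2IEKO mice, where replicate 12 was listed at 0. Its log2 difference was -0.03, with a 95% interval of -0.74 to 0.68 that also covers a change as large as that of Hps4. For Sez6l the lowest and highest values were 0.326 and 0.649 in Spry2FF and 0.288 and 0.795 in Spry2IEKO mice, and the log2 difference was 0.15, with a 95% interval of -0.25 to 0.55. In litter A alone (3 mice of each genotype), Sez6l was 0.457 to 0.649 in Spry2FF and 0.666 to 0.768 in Spry2IEKO mice. The groups were just apart there and overlapped in litter B.

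**Figure D2:**
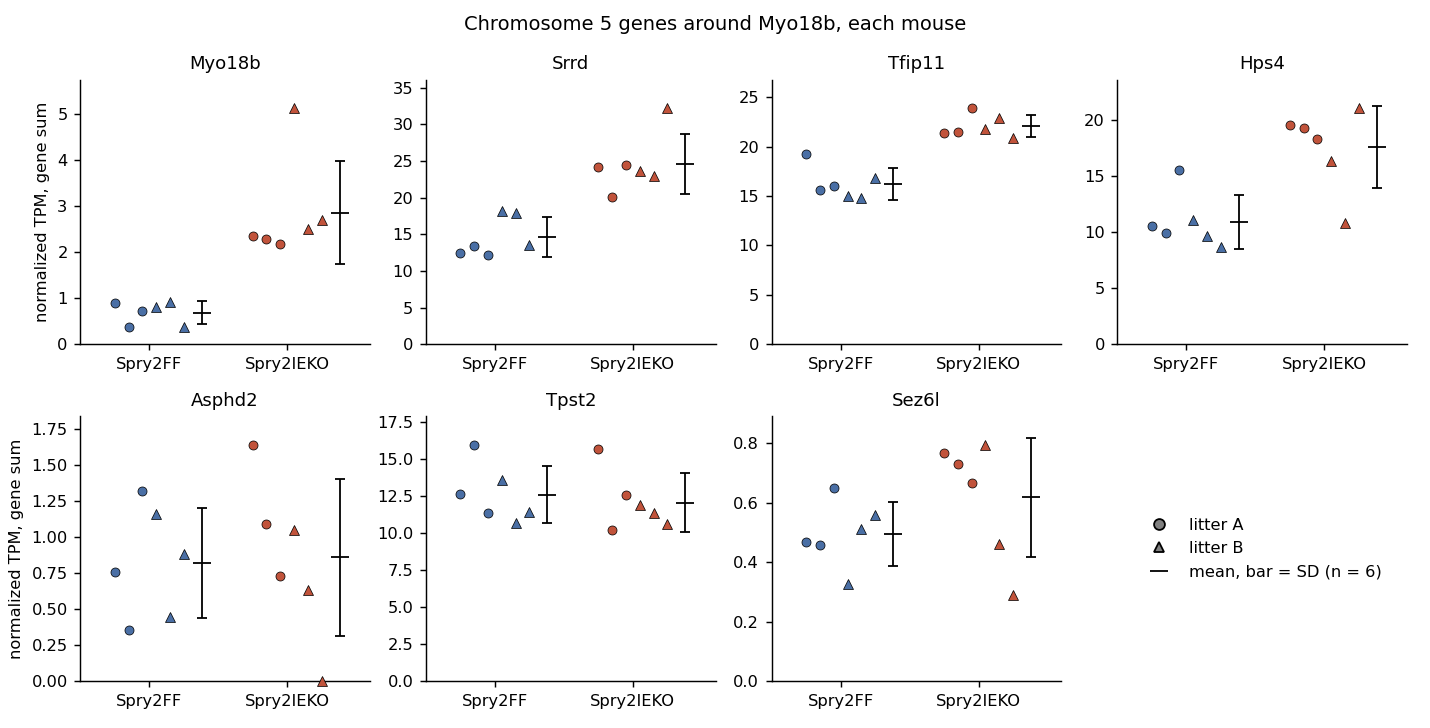
Gene sums in normalized TPM for each of the 12 mice, in order of replicate within litter A (circles) and litter B (triangles); the bar is the mean ± SD of 6 mice. All 6 Spry2IEKO mice lie above all 6 Spry2FF mice for Myo18b, Srrd and Tfip11, 5 of 6 do for Hps4, and the groups overlap for Asphd2, Tpst2 and Sez6l.

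All 6 Spry2IEKO mice were above all 6 Spry2FF mice for 3 of the 7 genes. Over all 15879 genes tested, 30 (0.189%) showed that pattern. By limma with Benjamini-Hochberg adjustment over all genes, 5 genes passed an adjusted p of 0.05 for genotype (0.0315%), of which Myo18b was 1. With litter as a covariate 6 genes passed, and Srrd joined Myo18b among them (adjusted p = 0.0498 by limma for Srrd). Because the same contrast was known when the genes were picked, nothing is read from either count against its background. Leaving out any 1 of 11 of the 12 mice (all but Spry2IEKO replicate 8) took Myo18b out of the genes past that threshold in the fit without litter.

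For Myo18b, Srrd, Tfip11 and Hps4 the direction was the same in both litters. Myo18b gave log2 differences of 1.27 (litter A) and 1.68 (litter B), without overlap of the genotypes in either. Srrd gave 0.83 and 0.64, Tfip11 0.39 and 0.48, and Hps4 0.67 and 0.64 in litters A and B, again without overlap except for Hps4 in litter B. With 3 mice of each genotype in a litter, groups come apart by chance more often than with 6. The share over all genes within a litter was not computed. Asphd2 gave 0.36 and -0.43, with overlap in both litters. Since 5 of 6 Spry2IEKO mice were female, the comparison was also made in females alone, where the log2 differences were 1.33 for Myo18b, 0.75 for Srrd, 0.47 for Tfip11 and 0.64 for Hps4.

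Whether the genotype difference itself differed between litters was tested with an interaction term in limma. None of the 7 genes passed (adjusted p of 0.998 or more for each), against 2 of 15879 genes (0.0126%), which became 4 without Spry2IEKO replicate 6 and 5 without Spry2IEKO replicate 12. The interval was wide for Myo18b, with a litter B minus litter A difference of 0.41 and a 95% interval of -0.52 to 1.34, and narrower for Tfip11 (0.09, -0.23 to 0.42). Differences between litters anywhere within these intervals are not excluded.

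Litter and sex were not used in choosing the genes and could be tested. Sample names carry a different prefix in each litter, so a litter difference cannot be told apart from whatever that prefix records. For litter 696 of 15879 genes passed (4.38%), a count that went from 178 (without Spry2IEKO replicate 5) to 1456 (with every mouse scaled to the same total), and none of the 7 passed. The nearest was Srrd, higher in litter B by 0.28 on the log2 scale (SE 0.108, adjusted p = 0.159). Spry2FF mice of litters A and B averaged 12.6 and 16.6, and Spry2IEKO mice 22.9 and 26.3. Hps4 leaned the other way (-0.27, SE 0.152, adjusted p = 0.32). For sex 16 genes passed (0.101%), 10 without Spry2FF replicate 9 or without Spry2IEKO replicate 8, and none of the 7. The largest sex difference was that of Myo18b, 0.36 higher in males (SE 0.224, adjusted p = 0.724), and without the single Spry2IEKO male it was 0.06. At an unadjusted p of 0.05 the litter count among the 7 genes was 1 (Srrd), where 21.9% of all genes were under it. For sex and for the interaction it was 0, where 8.41% and 4.19% of all genes were.

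To ask whether the genes moved together from mouse to mouse, the mean of each genotype and litter was subtracted and the remainder correlated over the 12 mice, with exact permutation p-values over all 1296 orders of mice within genotype and litter. Of the 21 pairs of genes, 10 had a positive and 11 a negative Pearson r, and none passed (lowest adjusted p = 0.782, exact permutation, two-sided, Benjamini-Hochberg over 21 pairs). No pair had an unadjusted p under 0.05 by either Pearson's r or Spearman's rho. The largest positive r was between Asphd2 and Sez6l (r = 0.65, rho = 0.61, exact permutation p = 0.144 and 0.124, r = 0.47 without the 2 mice of most extreme Asphd2). The most negative was between Srrd and Sez6l (r = -0.65, rho = -0.62, exact permutation p = 0.148 and 0.0934, r = -0.48 without the 2 mice of most extreme Srrd).

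Among Myo18b, Srrd, Tfip11 and Hps4 the signs were mixed, with 3 of 6 pairs positive. Srrd and Hps4, which start 42 bases apart, had r = 0.49 (rho = 0.41, exact permutation p = 0.277 and 0.269, r = 0.40 without the 2 mice of most extreme Srrd). Tfip11 went against both, with r = -0.42 to Srrd (exact permutation p = 0.143) and r = -0.48 to Hps4 (exact permutation p = 0.188). Myo18b had r = 0.04 to Srrd, -0.01 to Tfip11 and 0.33 to Hps4 (exact permutation p = 0.938, 0.965 and 0.518). No co-variation from mouse to mouse was detectable among the 4 once genotype and litter were removed, which with 12 mice does not show that there is none.

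**Figure D3:**
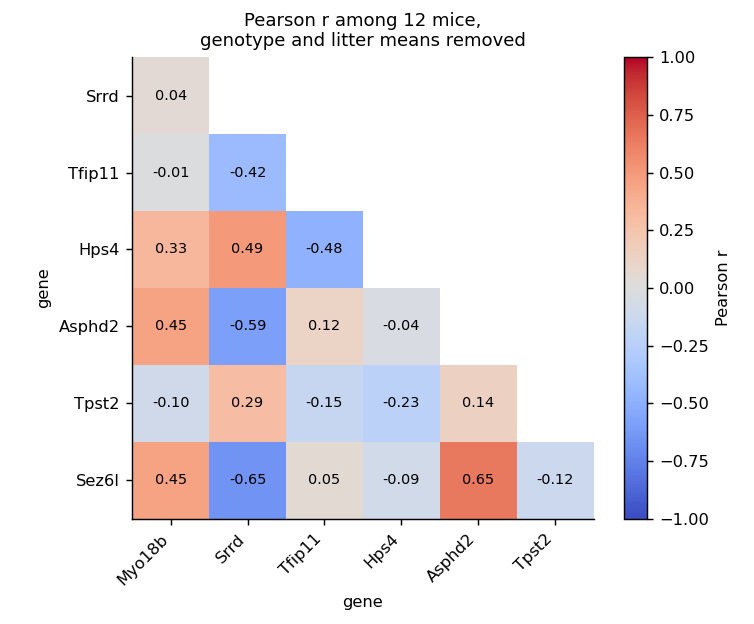
Pearson r for each pair of the 7 genes over 12 mice, on log2(normalized TPM + 0.5) with the mean of each genotype and litter removed; red is positive and blue negative. Values run from -0.65 to 0.65 and the 6 pairs of Myo18b, Srrd, Tfip11 and Hps4 include both signs.

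Single transcripts showed what the sums hold. Of the 41 transcripts, 20 had a mean of at least 0.5 normalized TPM (1 of Myo18b, 6 of Srrd, 2 of Tfip11, 7 of Hps4, 4 of Tpst2 and none of Asphd2 or Sez6l), and 2 were listed at 0 in every mouse. In 3 of these 20 all Spry2IEKO mice lay above all Spry2FF mice, against 47 of the 45368 transcripts tested (0.104%), and in 1 they lay below, against 47 as well (0.104%). In the limma fit 1 of the 45368 transcripts passed (0.0022%), and none of the 20 did. The contrast is the one known when the genes were chosen, so these are values without a test. Myo18b-202, Srrd-202 and Hps4-205 reached the mean of 0.5 only through Spry2IEKO mice, with Spry2FF means of 0.427, 0.486 and 0.252. Their entry among the 20 therefore depended on the genotype difference itself.

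Most of the difference between the Myo18b group means was that of Myo18b-202, a processed transcript with no annotated coding sequence. It was 0.383, 0.208, 0.460, 0.597, 0.688 and 0.224 normalized TPM in Spry2FF and 2.18, 1.91, 1.87, 4.40, 2.30 and 2.45 in Spry2IEKO mice. The full-length coding transcript Myo18b-201 was 0 to 0.515 in Spry2FF and 0.130 to 0.574 in Spry2IEKO mice, with means of 0.234 ± 0.167 and 0.268 ± 0.157 (SD, n = 6 each). The coding transcript overlapped between genotypes, while the short one made up 61.2% ± 12.04 of the gene's sum in Spry2FF and 88.4% ± 4.01 in Spry2IEKO mice (SD, n = 6 each).

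Myo18b-202 starts 130.4 kb into the gene, between exons 34 and 35 of the 44 exons of Myo18b-201. It has 11 exons and 2510 bases, of which 2413 (96.1%) are also exonic in Myo18b-201. What it has of its own is its first exon of 97 bases, chr5:112765835-112765931 on the minus strand (GRCm38). That exon is printed in capitals below, from the GENCODE M21 transcript, followed in lower case by the first 40 bases that it shares with Myo18b-201, because it is the sequence that sets this transcript apart.
Myo18b-202: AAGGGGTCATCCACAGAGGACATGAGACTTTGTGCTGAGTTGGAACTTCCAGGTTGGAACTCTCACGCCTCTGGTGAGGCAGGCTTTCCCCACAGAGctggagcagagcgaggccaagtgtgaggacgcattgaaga
How the estimate is divided between these transcripts rests on reads in this first exon and in the Myo18b-201 exons that Myo18b-202 lacks. It also rests on the evenness of coverage over the shared 3′ exons, and no read-level file was used here.

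Striated muscle markers overlapped between genotypes. The 8 markers (Acta1, Ckm, Mylpf, Tnnt3, Tnni2, Myh4, Myh1, Actc1) summed to 31.7 to 55.0 in Spry2FF and 20.1 to 65.4 in Spry2IEKO mice, Myh4 was listed at 0 in every mouse, and none of the 6 that could be tested passed. The smooth muscle sums of 4319 to 7149 and 3327 to 8164 overlapped as well. Epithelial sums were 5891 to 7377 in Spry2FF and 4784 to 6080 in Spry2IEKO mice, and goblet cell sums (Muc2, Tff3, Fcgbp and 5 others) had medians of 10280 and 15630. These ranges overlapped, no marker of either list passed the genotype test, and their part in the values of the 7 genes was not tested. In bulk tissue, fewer cells of a type and less RNA per cell cannot be told apart. Neuron, enteroendocrine, tuft, B cell and adipocyte lists also overlapped between genotypes, with none of their markers past the threshold.

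Tpst2, whose sum did not separate, held a pair of transcripts with opposite differences. Tpst2-202 was 1.45, 0, 1.36, 0.454, 1.26 and 0.706 normalized TPM in Spry2FF (the second value is listed at almost 0) and 4.70, 5.48, 6.20, 4.50, 3.44 and 3.84 in Spry2IEKO mice. Tpst2-201 was 5.63, 6.56, 3.69, 4.17, 4.76 and 4.24 in Spry2FF and 3.13, 1.44, 2.02, 3.11, 2.46 and 1.83 in Spry2IEKO mice. Neither pair of groups overlapped, and the directions were opposite, with log2 differences of 2.04 (SE 0.325) and -0.93 (SE 0.202), neither past the threshold over all transcripts.

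Both Tpst2 transcripts have the same coding exons. Tpst2-201 has 94 bases that Tpst2-202 lacks, of which 72 form a noncoding exon 2 (chr5:112303900-112303971), and Tpst2-202 has no base of its own. The sum of the 2 was 4.62 to 7.08 in Spry2FF and 5.66 to 8.22 in Spry2IEKO mice and overlapped. Over the 12 mice the most abundant Tpst2 transcript was the coding Tpst2-207. Its means were 4.84 ± 2.38 in Spry2FF and 3.53 ± 1.89 in Spry2IEKO mice (SD, n = 6 each), and the groups overlapped. It starts at chr5:112303896, beside exon 2, so reads in that exon may not be particular to Tpst2-201. How the estimate divides among these transcripts was not checked on reads. As a share of the gene, Tpst2-202 was 7.48% ± 5.10 in Spry2FF and 39.6% ± 9.96 in Spry2IEKO mice, and Tpst2-201 was 38.5% ± 6.04 and 19.2% ± 4.36 (SD, n = 6 each). Both transcripts start within the Tpst2 promoter window printed above.

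In Tfip11 one transcript carried the gene. The coding Tfip11-201 made up 92.6% ± 5.91 of the sum in Spry2FF and 92.3% ± 4.46 in Spry2IEKO mice (SD, n = 6 each). It was 13.8 to 17.7 normalized TPM in Spry2FF and 19.0 to 22.8 in Spry2IEKO mice, without overlap. The retained-intron transcript Tfip11-202 was 1.24 ± 1.01 and 1.41 ± 0.623 (SD, n = 6 each) and overlapped.

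**Figure D4:**
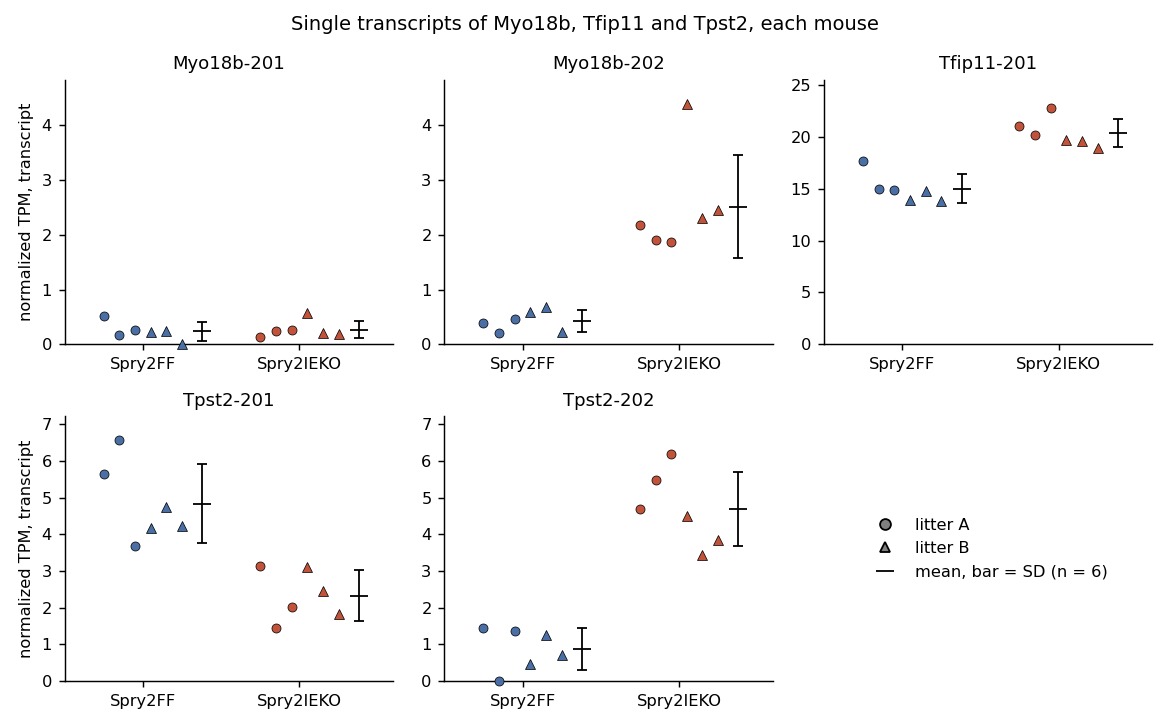
Normalized TPM of single transcripts in each of the 12 mice (litter A circles, litter B triangles, bar is the mean ± SD of 6 mice); the 2 Myo18b panels share one axis, as do the 2 Tpst2 panels. Myo18b-202 is 0.208 to 0.688 in Spry2FF and 1.87 to 4.40 in Spry2IEKO mice while Myo18b-201 stays low in both, and Tpst2-202 and Tpst2-201 differ in opposite directions.

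In Srrd and Hps4 no single transcript with a mean of at least 0.5 separated the genotypes. The 2 coding Srrd transcripts together were 3.55 to 6.13 in Spry2FF and 6.86 to 10.6 in Spry2IEKO mice, without overlap, and the 4 others together overlapped (7.65 to 13.6 and 13.1 to 25.4). In Srrd-204, 5 of 6 Spry2IEKO mice lay above all Spry2FF mice and the remaining one below all of them, so the split between transcripts was less stable than the sum. The 2 coding Hps4 transcripts together were 4.24 to 6.45 in Spry2FF and 4.93 to 9.70 in Spry2IEKO mice and overlapped. Hps4-201 was 1.74 to 3.37 in Spry2FF mice, 3.25 to 7.52 in 4 Spry2IEKO mice, and close to 0 in Spry2IEKO replicates 11 and 12, while Hps4-202 was 6.10 and 4.93 in those 2 mice.

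Beyond the 7 genes, the genotypes separated in none of the 12 other genes tested within 1 Mb of Myo18b (whole gene span within 1 Mb of its ends). The 7 were chosen with genotype values of some of them known, so their contrast with other neighbours is partly set by that choice. No boundary of a region is read from it, here or farther out. Their log2 differences ran from -0.46 to 0.63, with a median of -0.05, against a median of 0.01 over all genes. The next tested genes upstream of Myo18b were Grk3, a kinase of G protein-coupled receptors (log2 difference -0.05, SE 0.132), and Crybb3, a beta crystallin (-0.46, SE 0.214, adjusted p = 0.805 by limma). Selplg, the P-selectin ligand of leukocytes, had the largest positive value (0.63, SE 0.446, adjusted p = 0.859 by limma), with means of 2.79 ± 1.80 and 4.88 ± 3.32 (SD, n = 6 each). The remaining ones lay between -0.24 and 0.25: Sgsm1 (0.25), Gm26897 (0.10), Iscu, a scaffold for iron-sulfur clusters (0.09), Ficd (0.02), 2900026A02Rik (-0.05), Tmem119 (-0.10), Sart3, a recycling factor of spliceosomal RNAs (-0.12), Wscd2 (-0.24) and Cmklr1, the chemerin receptor (-0.24).

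Farther out on chromosome 5, the genotypes separated in none of 26 genes between 1 and 2 Mb and none of 78 between 2 and 5 Mb from Myo18b. In the rest of the chromosome all Spry2IEKO mice lay above all Spry2FF mice for 3 of 851 genes (0.353%) and below for 3. On other chromosomes the pattern was seen for 24 of 14859 genes (0.162%) in the upward and for 31 (0.209%) in the downward direction.

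**Figure D5:**
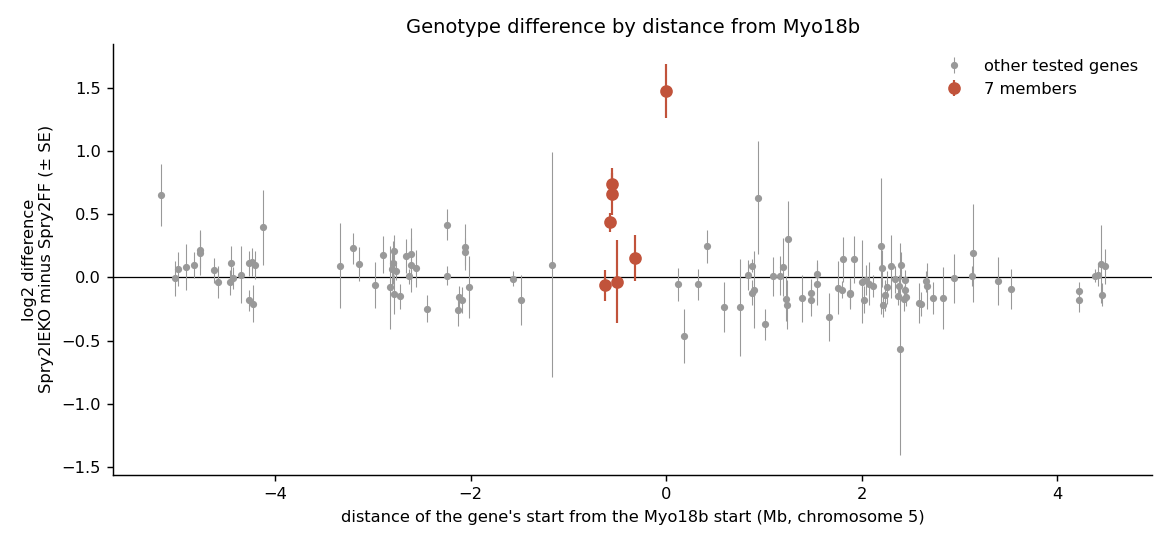
Log2 difference Spry2IEKO minus Spry2FF (± SE, log2(normalized TPM + 0.5), 6 mice each) of genes near Myo18b on chromosome 5, against the distance of the gene's start from the Myo18b start (Mb). Shown is every tested gene whose whole span lies inside a window reaching 5 Mb beyond each end of Myo18b. The members (red) include 4 values from 0.43 to 1.48, and the 116 other genes (grey) lie between -0.57 and 0.65. The members were chosen with some of these values known, so the contrast with the grey genes is partly set by that choice.

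Genes that work with the 7, or descend from the same ancestor, did not pass the genotype test. With 5 of 15879 genes passing (0.0315%), a call is unlikely in lists this short, so nothing is read from its absence. Of 16 genes of BLOC and AP-3 trafficking, all tested, none passed, 10 means were higher and 6 lower in Spry2IEKO mice, and the median log2 difference was 0.02. Hps1, the partner of Hps4 in BLOC-3, was 9.09 ± 0.966 and 9.96 ± 1.13 normalized TPM (SD, n = 6 each; log2 difference 0.12, SE 0.0993). Of 9 genes of spliceosome disassembly and the U5 particle none passed, with 3 means higher and 6 lower and a median of -0.02. Dhx15, the helicase partner of Tfip11, was 88.5 ± 2.83 and 92.5 ± 7.13 (SD, n = 6 each; log2 difference 0.06, SE 0.0581). Of 6 paralogs, 2 were under an unadjusted p of 0.05 by limma, where 981 of 15879 genes were. None of the 6 passed after adjustment, with 2 means higher and 4 lower and a median of -0.03. The largest values there were those of Asph (0.28, SE 0.0907, adjusted p = 0.692 by limma) and of Myo18a, the close relative of Myo18b (-0.23, SE 0.0992, adjusted p = 0.76 by limma), which at 90.6 ± 12.3 in Spry2FF mice (SD, n = 6) was far more abundant than Myo18b.

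The 5 genes outside the stretch whose pattern over the 12 mice was most like that of Myo18b all lie on other chromosomes. They were Rpl17-ps7 (Pearson r = 0.94), Ano4 (0.89), Etv4 (0.86), Ccdc14 (0.84) and Pdgfrl (0.83), over 12 mice on log2(normalized TPM + 0.5). Since the genotypes of Myo18b are apart, this likeness mostly ranks genes by their own genotype difference and is given as a description. Etv4, a transcription factor of the ETS family, was 12.1 ± 3.43 in Spry2FF and 23.8 ± 1.88 in Spry2IEKO mice (SD, n = 6 each), and Ano4 was 0.979 ± 0.215 and 1.76 ± 0.205.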

How the data were processed

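RNA from the distal colon of 12 mice was sequenced, and the authors estimated transcript abundances with kallisto and wrote them with sleuth (tools and build mm10 per the submitters' processing notes). The deposited table holds 1 signal value per transcript and mouse, a TPM estimate scaled once more between mice. Whether strand was used in counting is not given in the sources used here, the labels state paired-end and the study's methods single-ended reads, and the methods give the depth only as an approximate figure common to all samples, so no counting error was computed. The authors' own test columns (p-values, q-values and statistics) were not used. Of 113974 rows, 781 repeats were dropped (0 among the 7 genes), 26 symbols turned into dates were restored, and transcripts were summed per gene.

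Log2(value + 0.5) of 15879 genes with a mean of at least 0.5 was fitted with limma 3.58.1 (R 4.3.3, trend, two-sided, Benjamini-Hochberg). The fits were for genotype, litter, sex and the genotype by litter interaction. The 45368 transcripts were fitted in the same way for genotype only. The fit was tested on simulated data. Correlations used exact permutation in SciPy 1.17.1. Positions came from GENCODE M21 (GRCm38) and promoter sequences from RefSeq (GRCm38.p6). Genes named are the 7 members, tested genes within 1 Mb of Myo18b, the 5 most like Myo18b, Spry2, and at most 4 of a list with the largest difference, with Hps1 and Dhx15 added as partners after their values were seen. The genes, lists and tests were chosen with earlier results of these data known. Replicate numbers were not shared between genotypes. Alternatives were other pseudocounts, filters and scalings, covariates, single litters, females alone, and each mouse left out.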

Additional observations from a re-analysis of the deposited data

Results flagged for a closer look

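In 54 groups of 6 mice (the 7 gene sums and 20 transcripts in each genotype), 8 single mice lay far from the other 5, their gap to the nearest mouse exceeding 0.625 of the group's range. For normally distributed values chance gives about 1 in 20 groups, which may not hold for values at or near 0. Where 5 mice are listed at 0, as for Hps4-205 in Spry2FF, any value above 0 is flagged. A transcript and its gene's sum are not independent. Among gene sums in normalized TPM, Myo18b was 5.12 in Spry2IEKO replicate 8, the male (2.18 to 2.69 in the others), Srrd was 32.2 in Spry2IEKO replicate 12 (20.1 to 24.5), and Hps4 was 15.5 in Spry2FF replicate 7 (8.63 to 11.1). Among transcripts, Myo18b-202 was 4.40 in Spry2IEKO replicate 8 (1.87 to 2.45), Tfip11-201 was 17.7 in Spry2FF replicate 2 (13.8 to 15.0), and Srrd-206 was 3.02 in Spry2IEKO replicate 6 (0 to 0.909). Hps4-203 was 5.69 in Spry2IEKO replicate 12 (0.308 to 2.27), and Hps4-205 was 1.51 in Spry2FF replicate 13 and listed at 0 in the other 5.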

How the results depend on the processing

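The genotype differences of Myo18b, Srrd, Tfip11 and Hps4 stayed positive under all 24 alternatives. The number of genes past the genotype threshold (5) was 2 with quantile normalization, 1 without a filter, 1 with sex as a covariate, 1 in litter A alone, 1 in litter B alone and 2 in females alone, and 1 to 11 with 1 mouse left out. The number of the 7 genes past it (1, Myo18b) was 0 with quantile normalization, without a filter, with a minimum mean of 1, with sex as a covariate, in either litter alone and in females alone, 2 with litter as a covariate (Myo18b and Srrd), and 0 to 1 with 1 mouse left out. These single-litter and female fits hold fewer mice; the cause of the other changes was not tested. Genes whose genotypes did not overlap (3) were 5 in litter A alone and 2 with equal totals. None of the 336 litter, sex and interaction values of the 7 genes passed under any alternative. Pairs with positive r (10 of 21) ranged from 9 to 14. The genotypes share no replicate number, so mice were matched only by litter, as a covariate. The table gives no read counts, so values near 0 (Myo18b, Asphd2, Sez6l) carry no counting error here.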
